A study of Mus musculus with 6 samples.

Results

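The 7 genes described here are the mouse alpha-like globins Hba-a1, Hba-a2 and Hba-x and the beta-like globins Hbb-bs, Hbb-bt, Hbb-bh1 and Hbb-y. They were taken by name from a read count table of 53801 genes, and all 7 were present. Their transcripts were counted in 6 RNA-seq libraries of fetal liver cells, 3 with an inducible Arid3a-FLAG construct and 3 with an inducible construct labelled LUC. The libraries of both groups share everything else that the labels list. The cells came from E12.5-13.5 fetuses of a B6J.129(Cg) strain that carries Cas9 and EGFP at the Gt(ROSA)26Sor locus under the ubiquitous CAG promoter. They also carried a guide against Gata1 (sgGata1), bear the label Gata1s, which stands for a truncated GATA1 (an erythroid and megakaryocytic factor), and expressed the microRNA miR-125b from a lentivirus. All 6 received doxycycline at 1 μg/mL for 48 h, which switches on Arid3a-FLAG or LUC. Arid3a belongs to the ARID proteins, which bind AT-rich DNA, and the series title presents it as a megakaryocytic factor that restrains leukaemia. The labels do not say what LUC stands for, nor whether replicates came from separate animals or cultures, so the p-values measure the spread between these libraries, which may be technical. No library represents cells without a Gata1 guide or without miR-125b.

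Haemoglobin pairs alpha-like with beta-like chains, each holding a haem group that binds oxygen. In mice the primitive red cells that form in the yolk sac make the embryonic chains, zeta from Hba-x and epsilon-y and beta-h1 from Hbb-y and Hbb-bh1, together with adult alpha chains. The definitive red cells that form in the fetal liver make the adult chains from Hba-a1, Hba-a2, Hbb-bs and Hbb-bt. Each cluster has its own distant enhancers, and red cells normally balance alpha against beta output, since unpaired chains are toxic to them.

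On the genome build mm10 the alpha-like genes lie on the plus strand of chromosome 11. Hba-x spans chr11:32276400-32278116, Hba-a1 chr11:32283511-32284465 and Hba-a2 chr11:32296489-32297298, with a theta-type globin, Hbq1b, between the adult copies at chr11:32286965-32287784. The beta-like genes lie on the minus strand of chromosome 7, in transcriptional order Hbb-y at chr7:103851749-103853216, Hbb-bh1 at chr7:103841637-103843164, Hbb-bs at chr7:103826534-103828096 and Hbb-bt at chr7:103812524-103813996. None of the 7 genes overlaps another annotated gene in GENCODE release M21.

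The adult copies are nearly the same sequence, which bears on how far their counts can be told apart. The coding sequence of Hba-a1 differs from that of Hba-a2 at 1 of 429 bases, C381T. Hbb-bs differs from Hbb-bt at 1 of 444 bases, C417T, with positions counted from the A of the start codon. The 41 coding bases around each difference are shown 5′ to 3′ on the coding strand, from GENCODE M21 transcripts on mm10 (Hba-a1 chr11:32284323-32284363, plus strand; Hba-a2 chr11:32297140-32297180, plus strand; Hbb-bs chr7:103826672-103826712, minus strand; Hbb-bt chr7:103812663-103812703, minus strand), with the base that differs in capitals.
Hba-a1: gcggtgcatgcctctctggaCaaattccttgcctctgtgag
Hba-a2: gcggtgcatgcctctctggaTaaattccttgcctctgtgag
Hbb-bs: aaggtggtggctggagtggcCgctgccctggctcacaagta
Hbb-bt: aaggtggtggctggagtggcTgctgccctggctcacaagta

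Over whole transcripts, 439 of the 650 windows of 50 bases in Hba-a1 (67.5%) and 439 of the 505 in Hba-a2 (86.9%) occur unchanged in the other copy. For Hbb-bs and Hbb-bt the shared windows number 381 of 579 (65.8%) and 381 of 654 (58.3%). Hba-x, Hbb-bh1 and Hbb-y share no such window with any of the other genes. Reads from the shared stretches cannot be assigned to a copy by sequence, and how they were counted is not stated in any label or note. The adult pairs are therefore given both apart and summed, and only the sums are read as levels of the adult genes, as counted. A sum does not restore shared reads that were left out, if any were.

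Since members of the same cluster moved unequally, the proximal promoters are shown next, each as the 120 bases before the RefSeq transcription start on GRCm38.p6, 5′ to 3′ on the strand of the gene. They lie at chr11:32283552-32283671 (Hba-a1, plus), chr11:32296372-32296491 (Hba-a2, plus), chr11:32276480-32276599 (Hba-x, plus), chr7:103827929-103828048 (Hbb-bs, minus), chr7:103813924-103814043 (Hbb-bt, minus) and chr7:103853208-103853327 (Hbb-y, minus). Hbb-bh1 is named only. GENCODE M21, used for the gene spans above, places each start further upstream than RefSeq does. Each window therefore overlaps its annotated gene, and those of Hba-a1, Hba-x and Hbb-bs lie wholly inside it. Capitals mark matches, on either strand, to the TATA box core TATAA, to the CCAAT box, to CACCC as the core of KLF sites and to the GATA site TGATAA.
Hba-x: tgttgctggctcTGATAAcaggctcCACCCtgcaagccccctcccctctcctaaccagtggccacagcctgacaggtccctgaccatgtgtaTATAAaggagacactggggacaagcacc
Hba-a1: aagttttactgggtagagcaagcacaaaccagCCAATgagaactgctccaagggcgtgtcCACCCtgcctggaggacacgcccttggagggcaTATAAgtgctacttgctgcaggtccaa
Hba-a2: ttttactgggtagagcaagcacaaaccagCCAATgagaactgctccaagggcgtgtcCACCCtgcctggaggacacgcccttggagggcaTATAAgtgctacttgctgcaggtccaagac
Hbb-y: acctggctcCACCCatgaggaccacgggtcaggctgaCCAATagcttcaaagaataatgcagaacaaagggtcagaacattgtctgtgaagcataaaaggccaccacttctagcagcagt
Hbb-bs: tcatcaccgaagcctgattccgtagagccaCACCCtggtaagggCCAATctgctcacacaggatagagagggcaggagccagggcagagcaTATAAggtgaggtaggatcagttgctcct
Hbb-bt: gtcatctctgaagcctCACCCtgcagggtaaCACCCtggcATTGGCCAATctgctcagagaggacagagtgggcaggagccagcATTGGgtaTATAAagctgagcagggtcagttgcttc

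CACCC stood in 6 of the 6 promoters, against 31.7% of 32851 RefSeq mouse promoters searched over the same 120 bases. CCAAT, which reads ATTGG on the other strand, stood in 5, all but Hba-x (21.3% of all promoters), and TATAA in 5, all but Hbb-y (11.8%). TGATAA was matched in Hba-x only (3.55%). AGATAA (4.36% of all promoters) and the AT-rich cores ATTAAA (5.39%) and ATCAAA (4.58%), searched with ARID proteins in mind, matched in 0 of the 6. In Hba-a1 and Hba-a2 the windows are offset by a few bases, and the 117 bases they share are identical, so the promoters of the adult alpha copies read the same over this stretch. Hbb-bs and Hbb-bt share 91 identical bases in 122 aligned columns (74.6%). A match to letters is no proof of a bound site, and no match says only that those letters are not in this window.

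With Arid3a-FLAG, all 3 alpha-like genes rose and none of the 4 beta-like genes passed the same test. Summed adult alpha transcripts were 3.88-fold as high as with LUC and summed adult beta transcripts 1.26-fold as high, the beta difference falling short of the threshold. The largest relative change was in embryonic Hba-x, which was almost absent with LUC, and the smallest was in embryonic Hbb-bh1, whose group means nearly coincided. Of the 7 genes tested, 3 were called higher and 0 lower at an adjusted p under 0.05 (edgeR quasi-likelihood test, Benjamini-Hochberg adjustment over 13631 genes), where 3.43% of all tested genes were called higher and 3.87% lower, 7.29% in all. Their median log2 fold change was 1.07, beside -0.03 over all tested genes. In 4 of the 7, Hba-a1, Hba-a2, Hba-x and Hbb-y, every Arid3a-FLAG library lay above every LUC library, which held for 16.6% of all tested genes. Neither count of genes is a count of separate results. Hba-a1 and Hba-a2 share most of their sequence. Hba-x and Hba-a2 had few LUC counts and relied on Arid3a-FLAG libraries to pass the filter on low counts. With a minimum of 5 CPM in 3 libraries, Hba-a1 was the only alpha-like gene tested, and it was called. The labels give bulk RNA, in which more cells of a type and more RNA per cell cannot be told apart.

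**Figure D1:**
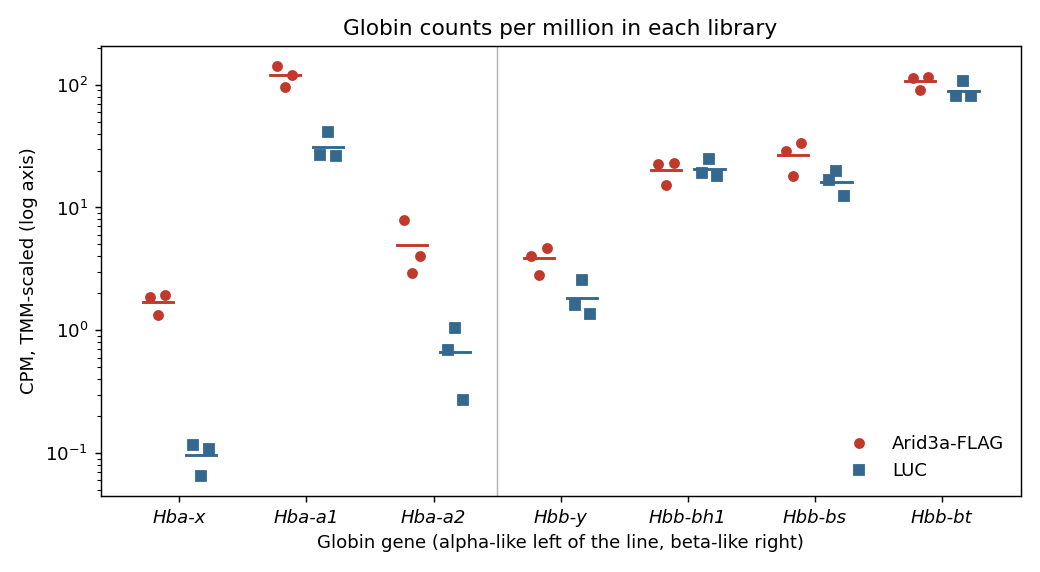
CPM (read counts scaled to a common library size with TMM factors, log axis) of the 7 globin genes in each library, Arid3a-FLAG as circles and LUC as squares, with a bar at each group mean. The groups stand apart for the 3 alpha-like genes and for Hbb-y and overlap for Hbb-bh1, Hbb-bs and Hbb-bt.

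Among the adult alpha genes, Hba-a1 carried nearly all counts. It had 141, 96.1 and 119.6 CPM in Arid3a-FLAG libraries 1, 2 and 3, against 26.7, 40.9 and 26.4 CPM in LUC libraries 1, 2 and 3. The lowest Arid3a-FLAG library was more than double the highest LUC library. Hba-a1 averaged 118.8 ± 22.4 CPM with Arid3a-FLAG and 31.3 ± 8.31 CPM with LUC (SD, n = 3 each). Its log2 fold change was 1.93 (SE 0.19, edgeR adjusted p = 0.00042), a 3.80-fold difference with a 95% interval of 2.86 to 5.05. Only 29 of the tested genes, 0.213%, had a log2 fold change at least that high, Hba-a1 itself included.

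Hba-a2, the other adult alpha copy, was far lower as counted. It had 128, 50 and 64 counts with Arid3a-FLAG and 12, 16 and 5 counts with LUC, or 4.96 ± 2.65 CPM and 0.670 ± 0.389 CPM (SD, n = 3 each). Every Arid3a-FLAG library again lay above every LUC library, with a log2 fold change of 2.91 (SE 0.49, edgeR adjusted p = 0.0071). With 5 counts in LUC library 3, the LUC libraries alone would not have taken Hba-a2 past the filter on low counts. Its place in the test thus relied in part on the group where it is high. Hba-a2 made up 5.34%, 2.93% and 3.25% of the adult alpha counts in the Arid3a-FLAG libraries, against 2.53%, 2.49% and 1.01% in the LUC libraries. Because the copies share most of their sequence, this small share and its size in each group are uncertain.

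Summed, Hba-a1 and Hba-a2 had 148.7, 99.0 and 123.6 CPM with Arid3a-FLAG, against 27.4, 42.0 and 26.7 CPM with LUC. The groups did not overlap. In the table with summed copies 7.39% of genes were called in either direction, and the log2 fold change of the alpha sum was 1.95 (SE 0.19, edgeR adjusted p = 0.00042, 95% interval 1.53 to 2.38), or 3.88-fold (2.89 to 5.20). Without any 1 library it lay between 1.80 and 2.21 and passed the threshold each time.

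Hba-x, the embryonic zeta gene at the 5′ end of the alpha cluster, had 30, 23 and 31 counts with Arid3a-FLAG and 2, 1 and 2 counts with LUC. It was thus close to the detection limit in every LUC library and low, but counted each time, with Arid3a-FLAG. In CPM these were 1.71 ± 0.331 with Arid3a-FLAG and 0.0963 ± 0.0270 with LUC (SD, n = 3 each). The 84 Arid3a-FLAG counts against 5 LUC counts give a rate ratio of 17.4, with an exact 95% interval of 7.18 to 55.1 that covers counting error only. The fitted log2 fold change was 4.03 (SE 0.46, edgeR adjusted p = 0.00088), a value that depends on the prior count the fit adds. With so few LUC counts, Hba-x passed the filter on low counts only through its Arid3a-FLAG libraries. It was also called with no such filter (edgeR adjusted p = 7.2e-10). That fit called 869 genes higher, against 467 with the filter, and gave Hba-a1 an edgeR adjusted p of 3.4e-57, against 0.00042. The call of Hba-x without the filter is therefore no separate support.

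The beta cluster gave smaller differences. The adult gene Hbb-bt was the most abundant of the cluster as counted, with 113.5, 90.9 and 115.4 CPM with Arid3a-FLAG, against 80.2, 107.4 and 80.4 CPM with LUC. LUC library 2 lay above Arid3a-FLAG library 2, so the groups overlapped. The log2 fold change of 0.26 (SE 0.14, 95% interval -0.04 to 0.55) missed the threshold (edgeR adjusted p = 0.261). Its near-identical copy Hbb-bs had 28.7, 18.2 and 33.5 CPM with Arid3a-FLAG, against 16.7, 19.7 and 12.4 CPM with LUC, again with LUC library 2 above Arid3a-FLAG library 2. The log2 fold change of Hbb-bs was 0.72 (SE 0.22, 95% interval 0.23 to 1.22, edgeR adjusted p = 0.077). Hbb-bs made up 20.2%, 16.7% and 22.5% of the adult beta counts with Arid3a-FLAG, against 17.2%, 15.5% and 13.4% with LUC, under the same limit on telling copies apart.

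Summed, Hbb-bs and Hbb-bt had 142.3, 109.0 and 148.8 CPM with Arid3a-FLAG, against 96.9, 127.1 and 92.8 CPM with LUC. The log2 fold change was 0.34 (SE 0.15, 95% interval 0.02 to 0.66, edgeR adjusted p = 0.177), or 1.26-fold. This rests on LUC library 2. Without it the sum differed by 0.50 (adjusted p = 0.011), Hbb-bs by 0.89 (adjusted p = 0.018) and Hbb-bt by 0.42 (adjusted p = 0.012), all past the threshold, and Hbb-bs also passed without Arid3a-FLAG library 2, at 0.94 (adjusted p = 0.034).

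The 2 embryonic beta-like genes parted from each other. Hbb-y, which encodes epsilon-y, had 65, 49 and 74 counts with Arid3a-FLAG and 28, 39 and 25 counts with LUC, or 3.84 ± 0.916 CPM and 1.84 ± 0.630 CPM (SD, n = 3 each). The groups did not overlap, although Arid3a-FLAG library 2 at 2.84 CPM lay close to LUC library 2 at 2.55 CPM. The log2 fold change of 1.07 (SE 0.30, 95% interval 0.40 to 1.74) had an edgeR adjusted p of 0.058, just outside the threshold, and it passed without LUC library 2 (1.38, adjusted p = 0.010).

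Hbb-bh1, which encodes beta-h1, had 22.7, 15.3 and 23.0 CPM with Arid3a-FLAG, against 19.0, 24.7 and 18.0 CPM with LUC. Its means were 20.3 ± 4.34 CPM and 20.5 ± 3.59 CPM (SD, n = 3 each). The log2 fold change was -0.01 (SE 0.18, 95% interval -0.41 to 0.38, edgeR adjusted p = 0.973), an interval that leaves out a change of the size seen in adult alpha. There were 5.63, 5.39 and 4.95 Hbb-bh1 counts per Hbb-y count with Arid3a-FLAG, against 11.8, 9.67 and 13.3 with LUC, with no overlap between groups.

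Per kilobase of transcript, the order of the counts was the same in both groups, while the gap at its upper end differed. How reads shared between copies were counted is not known, and a sum does not restore reads left out. Different genes are therefore set beside each other only as counted. With Arid3a-FLAG, summed adult beta stood at 200.4 ± 32.1 CPM per kb and summed adult alpha at 197.6 ± 39.7 CPM per kb, a pair within each other's spread. With LUC they stood at 158.7 ± 28.1 and 51.1 ± 13.8 CPM per kb, well apart. Below them came Hbb-bh1 at 33.2 ± 7.09 CPM per kb with Arid3a-FLAG and 33.5 ± 5.86 CPM per kb with LUC. Hbb-y followed at 6.07 ± 1.45 and 2.91 ± 0.996 CPM per kb, and Hba-x was lowest at 2.14 ± 0.413 and 0.120 ± 0.034 CPM per kb, in the same order of groups (SD, n = 3 each).

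A ratio within a library needs no scaling between libraries, and it sets the adult genes of the clusters directly against each other. There were 1.05, 0.908 and 0.830 adult alpha counts per adult beta count with Arid3a-FLAG, against 0.283, 0.330 and 0.287 with LUC. The Arid3a-FLAG libraries thus had close to equal counts from the adult alpha and the adult beta genes. The LUC libraries had about 3 adult beta counts for each adult alpha count. The mean log2 ratio was higher by 1.63 with Arid3a-FLAG, with no overlap (exact two-sided permutation test, p = 0.10, the smallest that 3 against 3 libraries can give). Leaving out each library in turn gave 1.54 to 1.70. Alpha-like genes took 47.1%, 44.1% and 41.6% of the counts of the 7 genes with Arid3a-FLAG, against 19.0%, 21.4% and 19.3% with LUC.

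Within the alpha cluster, the embryonic share was higher with Arid3a-FLAG, and within the beta cluster the share of the 2 embryonic genes together was lower. Hba-x made up 1.24%, 1.33% and 1.55% of the alpha-like counts with Arid3a-FLAG, against 0.420%, 0.156% and 0.403% with LUC. The log2 ratio of Hba-x to adult alpha was higher by 1.83 with Arid3a-FLAG (exact two-sided permutation test, p = 0.10, the smallest possible), on LUC values that rest on 5 counts. In the beta cluster Hbb-bh1 and Hbb-y together made up 15.8%, 14.3% and 15.7% of the counts with Arid3a-FLAG, against 17.6%, 17.6% and 17.2% with LUC. That log2 ratio differed by -0.24 (exact two-sided permutation test, p = 0.10, the smallest possible). Hbb-bh1 supplied most of these embryonic counts, and its log2 fold change of -0.01 lay below the 0.34 of summed adult beta. That of Hbb-y, 1.07 though not past the threshold, lay above it, the same direction as Hba-x against adult alpha. The ratio of Hbb-y alone to adult beta was not tested. In neither cluster can this permutation test go below 0.10 with 3 libraries a group.

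**Figure D2:**
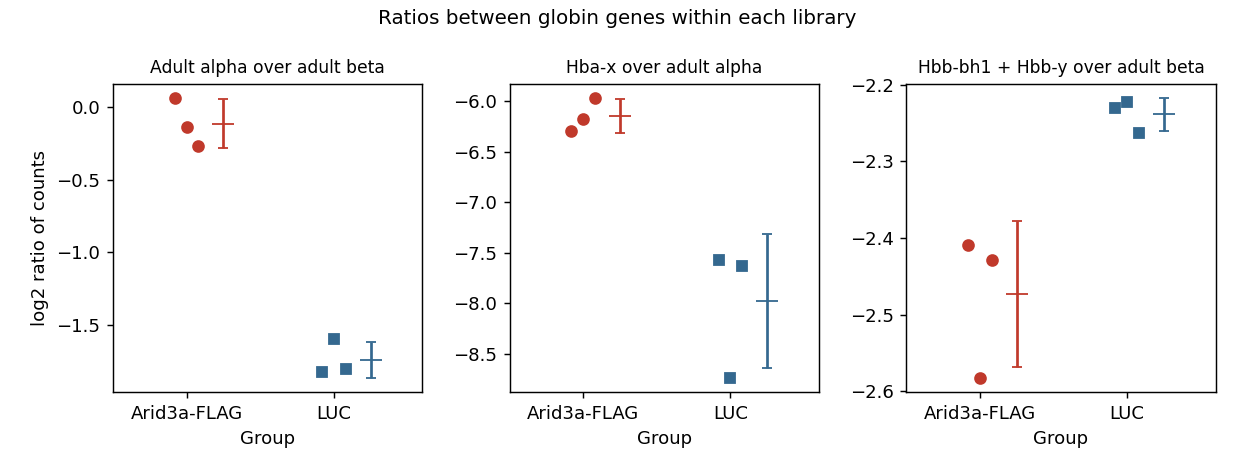
Log2 ratios of counts within each library for adult alpha over adult beta, Hba-x over adult alpha, and Hbb-bh1 with Hbb-y over adult beta, with points for the 3 libraries of each group and a bar with SD beside them. The groups do not overlap in any of the 3 panels, and the differences of means are 1.63, 1.83 and -0.24.

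Of 11 further globin genes and pseudogenes looked for, 10 were matched in the table, and of these only Hbq1b and Hbb-bh2 had enough counts to be tested. Hbb-ar was not analysed here. Hbq1b, a theta-type globin between the adult alpha copies, rose, with 160, 140 and 127 counts with Arid3a-FLAG and 77, 39 and 70 counts with LUC (log2 fold change 1.26, SE 0.22, edgeR adjusted p = 0.0089). Hbq1b no longer passed once Arid3a-FLAG library 1 was left out (adjusted p = 0.056). Its untested relative Hbq1a, at the 3′ end of the cluster, had 12, 9 and 15 counts with Arid3a-FLAG and 3, 1 and 8 counts with LUC. Hbb-bh2, a minor gene of the beta cluster, had 10, 3 and 15 counts with Arid3a-FLAG and 16, 24 and 20 counts with LUC, and its log2 fold change of -1.04 did not pass (SE 0.50, adjusted p = 0.217). The neuronal globin Ngb had 20 counts and the pseudogene Hba-ps4 13 counts over all 6 libraries.

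Genes within 200 kb were examined in both clusters. Around the alpha cluster 7 neighbours were tested, and 3 rose and 0 fell, with a median log2 fold change of 0.22, where 3.43% of all tested genes rose and 3.87% fell. The 3 lie on the side of Hba-x. Nprl3, a regulator of mTORC1 whose introns hold the major alpha-globin enhancers, had 36.1, 35.5 and 34.6 CPM with Arid3a-FLAG, against 25.5, 22.6 and 27.3 CPM with LUC (log2 fold change 0.49, SE 0.11, edgeR adjusted p = 0.021). Mpg, a DNA glycosylase that overlaps Nprl3 on the opposite strand, had a log2 fold change of 0.13 (adjusted p = 0.563). Rhbdf1, an inactive rhomboid protein, averaged 25.6 ± 2.98 CPM with Arid3a-FLAG and 15.8 ± 3.48 CPM with LUC (log2 fold change 0.69, SE 0.16, adjusted p = 0.032). Il9r, the interleukin-9 receptor, averaged 108.5 ± 17.7 CPM with Arid3a-FLAG and 68.1 ± 4.67 CPM with LUC (log2 fold change 0.67, SE 0.12, adjusted p = 0.010).

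Each neighbour that rose did so by less than any of the 3 alpha-like members, and none kept its call through every omission of a library. The adjusted p of Il9r was 0.051 without Arid3a-FLAG library 1. Rhbdf1 had 0.083 without LUC library 1 and 0.099, 0.084 and 0.110 without Arid3a-FLAG libraries 1, 2 and 3. Nprl3 had 0.063 without LUC library 1 and 0.108, 0.098 and 0.058 without Arid3a-FLAG libraries 1, 2 and 3. Snrnp25, a spliceosome protein, and the genes beyond the other end of the cluster, Sh3pxd2b and Ubtd2, had log2 fold changes of -0.03, 0.15 and 0.22 and did not pass (adjusted p = 0.934, 0.491 and 0.382). The beta cluster sits among 31 olfactory receptor genes, and its 1 tested neighbour, the pseudogene Dnajc19-ps, did not pass (log2 fold change -0.29, adjusted p = 0.585).

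**Figure D3:**
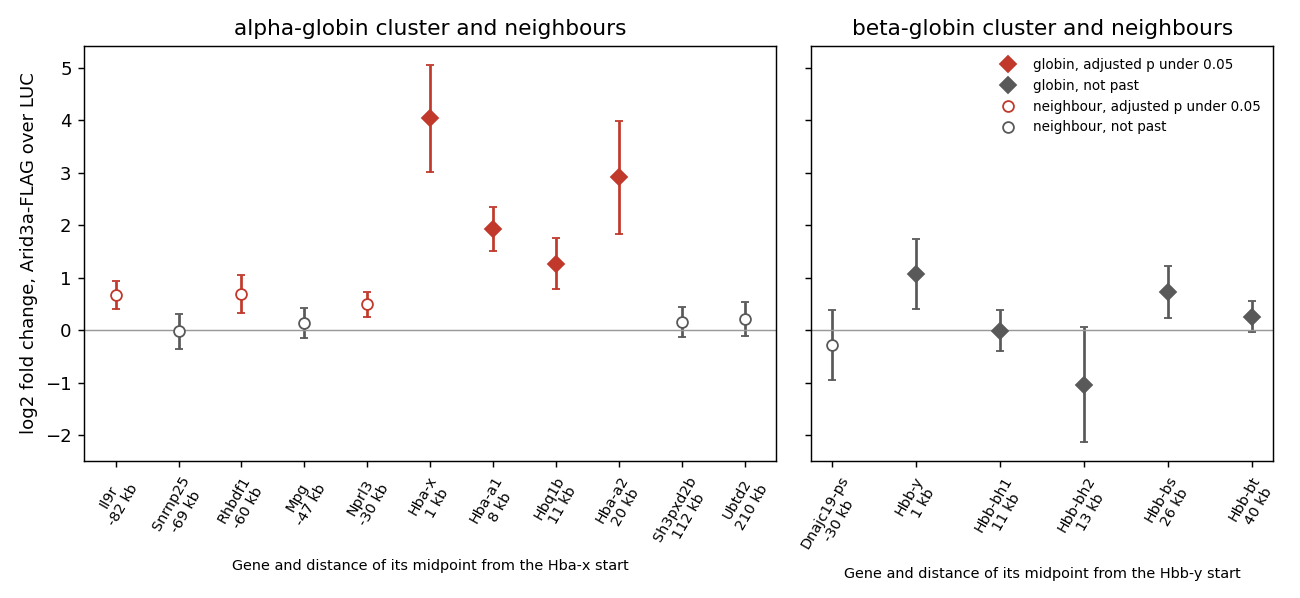
Log2 fold change (Arid3a-FLAG over LUC, with 95% intervals) of the tested genes of both clusters and their neighbours, in transcriptional order, with the distance of each midpoint in kb from the start of Hba-x or Hbb-y. In the alpha panel the 4 globins lie above their neighbours, and in the beta panel no gene is past the threshold.

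Among genes that regulate globin transcription the called share was no higher than over all genes. Of 49 tested regulators 1 rose, 1 fell and 47 did not pass, where 7.29% of all tested genes were called, and their median log2 fold change was 0.07. Tal1, which binds the globin enhancers with GATA1, rose to 436.1 ± 5.48 CPM with Arid3a-FLAG, against 334.7 ± 34.8 CPM with LUC (log2 fold change 0.38, edgeR adjusted p = 0.044). Nfia, a nuclear factor known to favour erythroid over granulocytic fate, fell to 6.03 ± 0.333 CPM, against 9.62 ± 1.77 CPM with LUC (log2 fold change -0.68, adjusted p = 0.045). Both calls sit at the threshold. Without LUC library 1 or any 1 Arid3a-FLAG library no regulator was called, while without LUC library 2 there were 6 that rose and 3 that fell, and without LUC library 3 there were 2 and 0.

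Regulators with a known part in globin switching, picked here for that role after their values were seen, were among the 47. Klf1, the activator of adult beta-globin, had 11.1 ± 3.13 CPM with Arid3a-FLAG and 11.9 ± 3.25 CPM with LUC (log2 fold change -0.10, adjusted p = 0.825). Gata1 had 325.8 ± 6.13 CPM with Arid3a-FLAG and 285.6 ± 29.0 CPM with LUC (0.19, adjusted p = 0.249). Every library carries the Gata1 guide and the label Gata1s, so these RNA counts do not report full-length GATA1. The embryonic and fetal globin repressors Bcl11a, Zbtb7a and Sox6 had log2 fold changes of -0.24, 0.29 and 0.25 (adjusted p = 0.211, 0.138 and 0.223), and Nr2c2, a nuclear receptor that represses embryonic globins, had 0.53 with every Arid3a-FLAG library above every LUC library (adjusted p = 0.059). Myb, which holds progenitors immature, had -0.32 (adjusted p = 0.181). Nfe2, the beta-globin locus activator shared with megakaryocytes, had -0.04 (adjusted p = 0.814).

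Enzymes and partners that a red cell needs beside globin were called about as often as genes in general, of which 7.29% were called. Of 16 tested haem synthesis genes 1 rose and 0 fell (median log2 fold change -0.05). The 1 was Fech, which inserts iron in the last step of haem synthesis. Fech averaged 60.9 ± 1.16 CPM with Arid3a-FLAG and 45.1 ± 3.78 CPM with LUC (log2 fold change 0.43, edgeR adjusted p = 0.024). Alas2, the erythroid gene for the first step, was at 2, 7 and 6 counts with Arid3a-FLAG and 3, 5 and 8 counts with LUC, too few to test. Of 21 genes for handling free globin chains and their oxidative damage 0 rose and 1 fell (median 0.06). The 1 was the antioxidant enzyme Gpx1, at 101.9 ± 10.5 CPM with Arid3a-FLAG and 149.0 ± 31.2 CPM with LUC (log2 fold change -0.55, adjusted p = 0.043). Ahsp, the chaperone of free alpha chains, was not analysed here. Neither Fech nor Gpx1 was called without LUC library 1 or without any 1 Arid3a-FLAG library; without LUC library 2 there were 2 that rose and 2 that fell in haem synthesis and 3 and 1 in chain handling, and without LUC library 3 there was 1 in each direction in each list.

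Genes of red cell maturation went both ways. Of 27 tested, 5 rose, 4 fell and 18 did not pass (median log2 fold change 0.17), beside 3.43% that rose and 3.87% that fell over all tested genes. Kel, the Kell blood group protein, had 34.8 ± 1.30 CPM with Arid3a-FLAG and 11.6 ± 2.12 CPM with LUC (log2 fold change 1.58, edgeR adjusted p = 0.00024). Epb42, protein 4.2 of the membrane skeleton, had 7.20 ± 0.353 CPM and 1.73 ± 0.252 CPM in that order (2.05, adjusted p = 0.00043), and Epb41, protein 4.1, had 344.5 ± 15.6 CPM and 247.1 ± 27.7 CPM (0.48, adjusted p = 0.022). The water channel Aqp1 fell to 3.10 ± 0.435 CPM with Arid3a-FLAG, against 6.71 ± 1.62 CPM with LUC (-1.12, adjusted p = 0.019). The anion exchanger Slc4a1, a defining gene of late red cells, was at 0 counts in all 6 libraries. Without any 1 Arid3a-FLAG library, 2 rose, and the same held without LUC library 1. Leaving out LUC library 2 gave 8 that rose, and the number that fell ranged from 1 to 5 over the 6 fits that leave out a library. Epb41 and Aqp1 were among the calls lost, with adjusted p up to 0.129 and 0.097.

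The globin genes moved in libraries in which markers of other cells moved as well. Of 20 tested megakaryocyte genes 7 rose and 1 fell (median log2 fold change 0.41), again beside 3.43% and 3.87% over all tested genes. The secreted matrix protein Thbs1 and the integrin chain Itgb3 rose by 2.58 and 0.97 on the log2 scale (edgeR adjusted p = 0.00067 and 0.0010), as did the platelet protein Plek by 0.69 (adjusted p = 0.0044), and the chemokine Ppbp fell by 1.01 (adjusted p = 0.0030). In the mast cell and basophil list, 12 genes were tested, and 0 rose and 3 fell (median -0.60), where 3.87% of all tested genes fell. The number that fell was 7 without Arid3a-FLAG library 3, 7 with no filter on low counts and 5 with DESeq2 or limma-voom. The 3 were the protease Mcpt8 (-2.43) and the IgE receptor chains Ms4a2 (-1.54) and Fcer1a (-1.24), with adjusted p = 0.00051, 0.0014 and 0.0015.

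Summed over whole lists, the 35 erythroid maturation genes, 2 of them at 0, reached 3305 to 3449 CPM with Arid3a-FLAG and 2909 to 2992 CPM with LUC, a narrow gap beside the change in alpha-globin. The 22 megakaryocyte genes summed to 9210 to 9850 CPM with Arid3a-FLAG and 8063 to 9834 CPM with LUC, the 14 mast cell and basophil genes to 2175 to 2971 CPM and 3062 to 3635 CPM, and the 18 haem synthesis genes to 962 to 1007 CPM and 955 to 1024 CPM. Single genes weighed on these sums. In the mast cell and basophil sum, Gata2, also a listed regulator, averaged 1290 CPM with Arid3a-FLAG and 1202 CPM with LUC. In the megakaryocyte sum, Pf4 averaged 3143 CPM with Arid3a-FLAG and 3938 CPM with LUC. Genes of erythroblastic island macrophages, which engulf red cell nuclei, summed to 103 to 120 CPM and 115 to 131 CPM in the same order of groups, with 5 of 18 at 0. Most of these sums came from Epor, counted among erythroid maturation genes too, and from Dnase2a. They averaged 55.3 and 42.9 CPM with Arid3a-FLAG, against 49.4 and 66.2 CPM with LUC, so the sums are not read as macrophage RNA. In that list 5 genes could be tested, of which Csf1r rose and Dnase2a fell, and both overlap another gene on the opposite strand. Hepatocyte genes summed to 16.3 to 20.4 CPM with Arid3a-FLAG and 20.3 to 27.3 CPM with LUC, with 6 of 12 at 0. The part of any of these markers in the globin values was not tested.

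**Figure D4:**
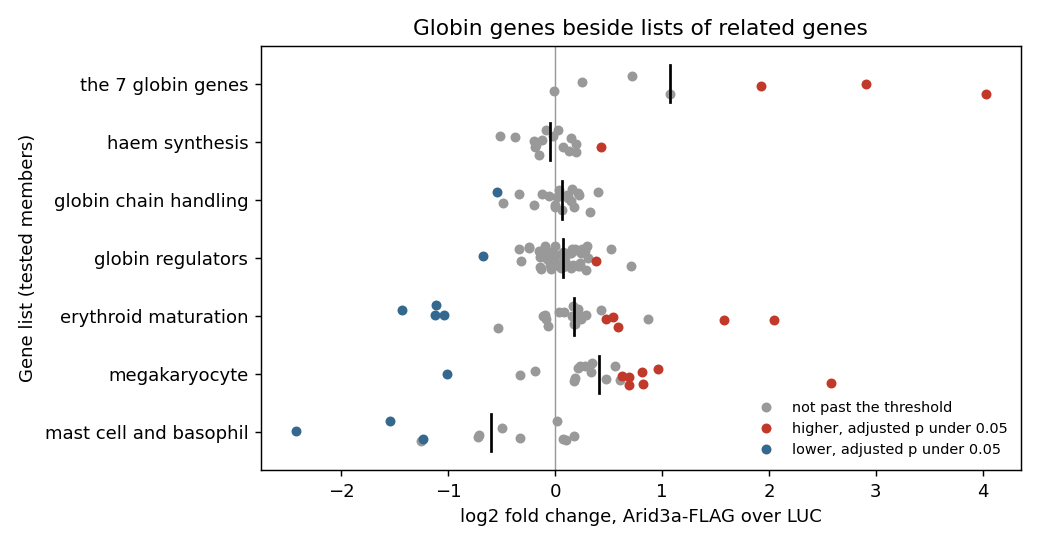
Log2 fold change (Arid3a-FLAG over LUC) of the 7 globin genes and of the tested members of 6 lists, 1 point per gene, with a bar at the median of each list. Of the 7 globin genes, 3 are past the threshold and lie from 1.93 to 4.03, and the median of all 7 is 1.07. The medians of the haem synthesis, chain handling and regulator lists lie between -0.05 and 0.07. Those of the erythroid maturation, megakaryocyte, and mast cell and basophil lists are 0.17, 0.41 and -0.60.

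The genes most like summed adult alpha across the 6 libraries were sought among 9614 tested genes of at least 5 CPM on average, by the root mean square difference of log2 CPM centred on the mean of each gene. The closest was Usp39, a splicing protein of the ubiquitin protease family, at 0.240, with a log2 fold change of 1.77. Next came Tmem158, a membrane protein, at 0.256 (log2 fold change 1.55), the cation exchanger Slc24a1 at 0.306 (2.10), the cell-surface proteoglycan Gpc4 at 0.321 (2.15) and Exoc3l4, which overlaps Gm10425 on the opposite strand, at 0.346 (2.16). None of the 5 is a globin, and none is in a list above.

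Library totals ran from 15728150 to 17011606 counts with Arid3a-FLAG and from 16605860 to 18249053 counts with LUC, so depth differed little between groups. The 7 globin genes took 0.0321%, 0.0230% and 0.0306% of the counts with Arid3a-FLAG, against 0.0149%, 0.0181% and 0.0141% with LUC, a small share in every library. The construct entry was counted in the 3 Arid3a-FLAG libraries only, as labelled. LUC library 2 stood apart on the second principal component (-31.1, against 19.3 and 16.8 for LUC libraries 1 and 3) and was the highest LUC library for 6 of the 7 globin genes, while Arid3a-FLAG library 2 was the lowest of its group for all 7. Over all tested genes 467 were higher and 527 lower, and without LUC library 2 these counts became 1191 and 1095. Without LUC library 1 they were 189 and 239, without LUC library 3 they were 612 and 437, and without Arid3a-FLAG library 1, 2 or 3 they were 115 and 118, 131 and 163, and 209 and 356. The 3 alpha-like calls were made in each of these 6 fits.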

How the data were processed

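Per the submitters' processing notes, reads were handled with fastp, HISAT2 2.0.5 and featureCounts on mm10. For settings, strand use and reads that align to several places, the sources used here give nothing. The authors deposited whole-number read counts per gene, not normalized. The row of the construct was left out of library totals and of every test. Symbols came from GENCODE M21 by Ensembl identifier, and 95 identifiers had no match.

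The gene test was the quasi-likelihood F test of edgeR 4.0.16, run in R 4.3.3 (filterByExpr, TMM factors, group as the only term, two-sided, Benjamini-Hochberg over 13631 genes, threshold 0.05). Standard errors are the log2 fold change over the square root of F. A second fit used summed adult copies (13629 genes). CPM used TMM-scaled library sizes and are mean ± SD over 3 libraries. The length of the first annotated transcript, averaged over copies for sums, gave CPM per kb. Embryonic ratios added 0.5 to each count. Precision is set by the counts themselves, which for Hba-x are under 10 in each LUC library.

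The members, the gene lists and the rule for named genes were chosen with earlier results of these data known. Named were the 7 genes and their sums, other globins of at least 10 counts, tested genes within 200 kb, up to 3 genes of smallest p in each direction per list, and the 5 most alike genes (prior count 2). Not every gene chosen by this rule is reported. The alternatives were DESeq2 1.42.0, limma-voom (limma 3.58.1), upper quartile or RLE factors, no filter, a minimum of 5 CPM in 3 libraries, the 20 most abundant other genes left out, a replicate block, a pseudocount of 1 and each library left out.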

Additional observations from a re-analysis of the deposited data

Results flagged for a closer look

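The construct entry, which is outside the globin comparison, averaged 187.8 CPM in the Arid3a-FLAG libraries and had 0 counts in each LUC library. It drew attention because it is a signal in an entry that no globin result uses, counted in every Arid3a-FLAG library and in no LUC library.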

How the results depend on the processing

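The calls of Hba-a1, Hba-a2 and Hba-x held under each alternative, of 14, that tested them. A minimum of 5 CPM in 3 libraries left 4 of the 7 genes, of which 1, Hba-a1, was called. With no filter and with DESeq2, 5 of the 7 rose, Hbb-bs and Hbb-y being added, and leaving out each library gave 3 to 6. Genes higher numbered 869 with no filter, 771 with DESeq2 and 115 to 1191 with a library left out; genes lower numbered 1076 with no filter and 118 to 1095 with a library left out. Summed adult beta passed with no filter (log2 fold change 0.36, edgeR adjusted p = 0.021) and ranged from 0.25 to 0.50 with a library left out; the cause of these changes was not tested. The log2 fold change of Hbb-bh1 turned to 0.0064 with no filter, 0.0071 with the abundant genes left out, 0.15 without LUC replicate 2 and 0.16 without Arid3a-FLAG replicate 2 (range with a library left out -0.11 to 0.16). That of Snrnp25 turned to 0.18, 0.032 and 0.0021 without LUC replicate 2, Arid3a-FLAG replicate 2 and Arid3a-FLAG replicate 3 (range -0.12 to 0.18). The log2 ratio of Hba-x to adult alpha was higher with Arid3a-FLAG by 1.45 to 2.04 with a library left out and 1.54 with a pseudocount of 1, and that of Hba-a1 to Hbb-bs alone by 1.24. Same-numbered libraries correlated at -0.10, -0.11 and 0.12, so the numbers are not taken to pair them. With the replicate block 410 genes were higher and 530 lower, 3 of the 7 genes rose, and summed alpha and beta were 1.96 and 0.34 (edgeR adjusted p = 0.00019 and 0.214). Gpx1, Tal1 and Nfia were no longer called, and 6 mast cell and basophil genes fell. Under this pairing the ratio differences of 1.63, 1.83 and -0.24 had an exact sign-flip p of 0.25, the smallest possible. Depth limits Hba-x most, with 5 LUC counts in all.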
